A study of Mus musculus with 18 samples.

Results

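The interferon-stimulated genes described here are 41 mouse genes that were listed by symbol, and all 41 were found among the 24360 gene symbols of each count table. The tables write the symbols in capitals, such as IFIT1, OASL2, GBP3 and BST2, and the mouse spelling is used here. The rule takes them by symbol and names no measured value, although earlier results of these data were known when the list was drawn up. RNA sequencing was performed on 168FARN and 67NR, sister cell lines from a spontaneous mammary tumour of a BALB/c mouse, and on derivatives of both in which *Kmt2c* or *Kmt2d* had been knocked out. These genes encode related histone methyltransferases that act mainly at enhancers, and the study asked how the loss of either one changes the tumour cells. The 3 genotypes, WT, *Kmt2c* KO and *Kmt2d* KO, gave 6 groups over the lines, each with 3 libraries (replicates 1, 2 and 3). The KO cells had been transfected with 3 guide RNA vectors against exon 1 of the gene together with a Cas9 and GFP vector, over repeated rounds of sorting, so each KO is a pool of edited cells and not a clone. The 168FARN WT libraries came from cells with a control guide RNA, and the 67NR WT libraries are named only as WT. All groups were grown in the same medium with serum, and no interferon, infection or other treatment is named for any of them. Replicates of a group were cells of one line collected a passage apart, so the p-values measure the spread between collections of the same cells.

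Interferons are secreted proteins that warn cells of infection. They bind receptors at the cell surface, whose kinases activate transcription factors of the STAT and IRF families, and these switch on a shared set of genes through short promoter sequences such as the interferon-stimulated response element (ISRE). The products of that set sense foreign nucleic acid, block viral RNA and translation, tag proteins with ISG15 and feed back on the pathway itself. Tumour cells grown without added interferon often keep a low, basal level of the same genes.

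Library sizes ran from 14359760 to 43427382 counts in 168FARN and from 40951775 to 79251530 counts in 67NR, so low members were measured more finely in 67NR. The ribosomal precursor *Rn45s* took 0.458% to 4.96% of the counts of the 168FARN libraries. It took at most 2.45% in 8 of the 9 libraries of 67NR and 28.7% in *Kmt2d* KO replicate 3 of that line. Transcript counts of *Kmt2c* and *Kmt2d* could not check the KO labels, since small edits in exon 1 need not lower them. The study itself sequenced the targeted regions and found most reads mutant in each KO. Its share of mutant reads was lowest in 67NR *Kmt2c* KO, so the pools differed in editing. Its immunoblots showed less of the proteins in KO cells of both lines. In CPM (counts scaled to the library total), *Kmt2c* averaged 87.9 ± 37.6 (SD, n = 3) in 168FARN WT and 77.6 ± 26.9 in *Kmt2c* KO, and *Kmt2d* averaged 141 ± 31.8 in WT and 231 ± 83.9 in *Kmt2d* KO. In 67NR *Kmt2c* averaged 58.2 ± 4.39 CPM in WT and 90.0 ± 5.20 in *Kmt2c* KO, and *Kmt2d* averaged 97.3 ± 14.3 in WT and 113 ± 29.6 in *Kmt2d* KO. The 5 epithelial markers summed to 124 to 390 CPM in 168FARN WT, 97.8 to 286 in *Kmt2c* KO and 97.7 to 380.5 in *Kmt2d* KO. In each of these groups 1 of the 5, *Krt8*, exceeded 1 CPM, and *Epcam* and *Cldn4* had 0 counts. Of the 5 mesenchymal markers, 4 exceeded 1 CPM in every 168FARN group and in 67NR WT, and 5 in both 67NR KOs. Their sums overlapped in 67NR, at 3109 to 5948 CPM in WT, 3993 to 5163 in *Kmt2c* KO and 3764 to 5272 in *Kmt2d* KO. Single markers of this list moved in opposite directions there. In 67NR the epithelial markers summed to 2342 to 3700 CPM in WT, 511 to 789 in *Kmt2c* KO and 909 to 1565 in *Kmt2d* KO, and so moved with genotype. The 7 leukocyte markers summed to at most 0.296 CPM in 168FARN and at most 0.557 in the 67NR KO libraries, with *Adgre1*, *Nkg7* and *Ptprc* at 0 in 67NR WT, where *Csf1r* alone passed 1 CPM and the sum was 0.185 to 3.65. Any part of these markers in the results below was not tested, and in bulk RNA fewer cells of a type and less RNA per cell cannot be told apart.

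Values are CPM scaled within each line by the trimmed mean of M-values (TMM) and are given in the order of replicates 1, 2 and 3. A fold change is on the log2 scale, KO against WT, with its standard error (SE). A gene was called when its edgeR adjusted p was under 0.1 and its absolute log2 fold change over 0.6. The first fit held genotype alone. A second fit, called blocked here, also held the replicate number, because same-numbered libraries of different genotypes deviated together in both lines. Replicates 1 and 2 did so across numbers too, so only replicate 3 was seen to stand apart. The replicate 3 effect is the log2 difference between replicate 3 and the mean of replicates 1 and 2 across the 3 genotypes of a line. After the filter on low counts, 39 of the 41 members were tested in 168FARN, where *Mx1* and *Cmpk2* were too low, and all 41 in 67NR. Both KOs of a line were compared with the same WT libraries.

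Many of the genes share chromosome neighbourhoods and promoter letters. On mm9, with positions from GENCODE, 17 of the 41 genes lay in 7 clusters with gaps of at most 200 kb. These were *Oasl2* and *Oasl1* at chr5:115346943-115387924, *Oas2*, *Oas3* and *Oas1a* at chr5:121180342-121357536, *Ifit2*, *Ifit3* and *Ifit1* at chr19:34625184-34724499, *Parp14*, *Dtx3l* and *Parp9* at chr16:35832960-35972691, *Gbp3* and *Gbp2* at chr3:142223016-142300972, *Mx1* and *Mx2* at chr16:97668642-97782506, and *Rsad2* and *Cmpk2* at chr12:27127618-27164700. RefSeq promoter windows, from 250 bases before to 50 after the start site, were found for 32 of the 41 genes. The ISRE core GAAANNGAAA was searched on both strands, and it was present in the windows of 16 of the 32 genes (50.0%), against 3.99% of all 27025 genes with a window. The letters TTCNNNGAA of the interferon-gamma activated site, searched the same way, were present in 8 of the 32 (25.0%), against 9.55% of all genes. A match is a description of the letters and not a binding site. The windows of 4 members whose values are described below are printed 5′ to 3′ in the direction of the gene, with ISRE core matches in capitals, to show the element with which the family is named. The *Ifit1* window (GRCm38.p6, chr19:34640639-34640938, plus strand) held 2 matches on its opposite strand, which began 104 and 85 bases before the start site. The *Oas1a* window (chr5:120907476-120907775, minus strand) held 2 overlapping matches at 20 and 14 bases, the *Oas3* window (chr5:120777610-120777909, minus strand) 1 match at 75 bases, and the *Gbp2* window (chr3:142620413-142620712, plus strand) 1 match on the opposite strand at 59 bases.
Ifit1: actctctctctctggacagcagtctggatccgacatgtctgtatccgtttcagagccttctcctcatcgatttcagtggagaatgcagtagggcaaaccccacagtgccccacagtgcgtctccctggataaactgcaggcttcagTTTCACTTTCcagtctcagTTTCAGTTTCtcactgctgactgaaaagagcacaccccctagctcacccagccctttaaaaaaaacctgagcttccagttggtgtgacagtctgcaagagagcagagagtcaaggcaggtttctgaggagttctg
Oas1a: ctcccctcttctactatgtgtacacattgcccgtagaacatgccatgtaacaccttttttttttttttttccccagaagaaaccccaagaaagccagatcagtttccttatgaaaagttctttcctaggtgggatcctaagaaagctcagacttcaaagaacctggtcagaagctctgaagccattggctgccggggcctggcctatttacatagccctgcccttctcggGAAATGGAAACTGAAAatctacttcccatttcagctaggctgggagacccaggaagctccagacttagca
Oas3: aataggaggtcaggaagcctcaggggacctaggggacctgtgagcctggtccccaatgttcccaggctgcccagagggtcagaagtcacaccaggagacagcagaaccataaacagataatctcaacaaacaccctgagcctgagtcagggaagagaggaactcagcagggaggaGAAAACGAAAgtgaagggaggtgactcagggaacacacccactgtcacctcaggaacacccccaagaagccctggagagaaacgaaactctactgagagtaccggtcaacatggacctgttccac
Gbp2: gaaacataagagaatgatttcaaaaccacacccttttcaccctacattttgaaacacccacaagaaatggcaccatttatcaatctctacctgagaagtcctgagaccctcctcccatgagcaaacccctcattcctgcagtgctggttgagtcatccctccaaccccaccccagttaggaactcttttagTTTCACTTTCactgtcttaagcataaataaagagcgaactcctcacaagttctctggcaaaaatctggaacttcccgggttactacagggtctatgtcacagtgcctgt

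In 67NR, the interferon-stimulated genes were lower in both KOs. In *Kmt2c* KO, 34 of the 41 members were called lower than WT and 1, *Ifit2*, higher, where 17.4% of all 13665 genes tested were called lower and 17.9% higher. The median log2 fold change of the members was -2.15, against -0.02 over all genes tested. In *Kmt2d* KO, 28 of the 41 were called lower and 0 higher, against 11.6% and 13.9% of all genes. Their median was -1.42. The blocked fit called 33 lower and 1 higher in *Kmt2c* KO, where 19.9% of all genes were called lower and 21.3% higher, and 32 lower in *Kmt2d* KO, against 15.4% of all genes. All 3 *Kmt2c* KO libraries were below all 3 WT libraries for 36 of the 41 members (23.5% of all genes) and above them for 1, *Ifit2* (23.8%). The 3 *Kmt2d* KO libraries were all below WT for 33 members (18.6% of all genes). With genotype alone, 29 of the 35 calls in *Kmt2c* KO and 25 of the 28 in *Kmt2d* KO were kept in each fit that left out 1 library. Calls were lost in some of these fits for *Ifit2*, *Samhd1*, *Mx2*, *Gbp3*, *Xaf1* and *Ifi35* in *Kmt2c* KO and for *Dhx58*, *Oas2* and *Gbp3* in *Kmt2d* KO. Without *Kmt2d* KO replicate 3 the *Kmt2d* KO fold change of *Oas2* was -4.56. Blocked and without WT replicate 3, *Mx2* gave -1.71 in *Kmt2c* KO and -1.04 in *Kmt2d* KO.

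In 168FARN, the result differed between the KOs and rested on how the replicate number was treated and on the test used. With genotype alone, 0 of the 39 members tested were called in *Kmt2c* KO by edgeR (0.359% of all 12253 genes), 2 had an unadjusted p under 0.05, and DESeq2 called 1. The members' median log2 fold change was -0.12, against 0.01 over all genes. For *Kmt2d* KO the same fit called 1 member lower, *Gbp3* (0.139% of all genes), although 37 of 39 members had a negative fold change, 23 had an unadjusted p under 0.05 and the median was -1.25. DESeq2 with genotype alone called 16 members lower and 1 higher in *Kmt2d* KO, where it called 130 of the 12253 genes lower and 118 higher. Blocked, 30 of the 39 members were called lower in *Kmt2d* KO and 1, *Sp100*, higher, where 3.17% of all genes were called lower and 2.73% higher. The count of 31 ranged from 21, without *Kmt2d* KO replicate 1, to 32, without WT replicate 3, and 19 of the 31 were called in each such fit. Without *Kmt2d* KO replicate 1 the blocked fold change was -3.6 for *Ifih1* and -0.63 for *Dhx58*, and without *Kmt2d* KO replicate 3 it was -0.45 for *Oasl1*. With genotype alone, 3 members were called without WT replicate 3, 2 without *Kmt2c* KO replicate 3, and 0 when any one of the other libraries was left out. In *Kmt2c* KO the blocked fit called *Sp100* and *Oasl1* higher and *Ifit3* lower, against 3.66% of all genes called higher and 3.57% lower. That count of 3 was 7 without WT replicate 3, 5 without *Kmt2c* KO replicate 3, and 1 without replicate 1 or 2 of either of these genotypes, and *Sp100* was the only one of the 3 called in each fit that left out 1 library. All 3 *Kmt2d* KO libraries were below all 3 WT libraries for 21 of the 39 members, against 5.65% of all genes, and all 3 *Kmt2c* KO libraries for 1, *Herc6*, against 5.66%.

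Replicate 3 of 168FARN stood apart from replicates 1 and 2 in most of these genes. Its effect was called lower for 24 of the 39 members and higher for 3, with a median of -0.94, against 25.7% of all genes called lower, 22.5% higher and a median of -0.01. Replicate 3 was the lowest library of all 3 genotypes for 19 of the 39 members and the highest for 4, where all genes gave 35% and 33.6%. The count of 27 called ranged from 23 to 29 when 1 library was left out. Without WT replicate 3 the effect was -0.47 for *Dhx58*, -0.38 for *Ifit3* and -0.31 for *Ifi44*, and none of these was called. The effect was larger in absolute size than the blocked *Kmt2c* KO effect for 31 of 39 members, and larger than the blocked *Kmt2d* KO effect for 16 of the 38 that had counts in *Kmt2d* KO. The same counts were not made over all genes. Of all genes of this line, the blocked fit called 3.57% lower and 3.66% higher in *Kmt2c* KO. It called 3.17% and 2.73% in *Kmt2d* KO, so replicate 3 calls outnumbered KO calls over all genes too. In 67NR the replicate 3 effect was called higher for 8 of the 41 members and lower for 2, against 15.1% and 13% of all genes, with a median of 0.27. The count of 10 ranged from 7 to 13 (13 without *Kmt2c* KO replicate 3), and *Zbp1* and *Gbp3* alone were called in each of those fits. Without WT replicate 3 the effect was 0.39 for *Isg15*, 0.71 for *Gbp3* and -3.13 for *Mx2*. Without *Kmt2d* KO replicate 3 it was 1.01 for *Oas2* and -0.86 for *Mx2*, and without *Kmt2c* KO replicate 3 it was 0.78 for *Cmpk2*. Replicate 3 was the highest library of every genotype for 15 of the 41 members and the lowest for 6, against 24.8% and 26.4% of all genes. There the effect was larger than the blocked KO effect for 3 of 41 members in *Kmt2c* KO and 5 of 41 in *Kmt2d* KO. These counts were not made over all genes either.

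**Figure D1:**
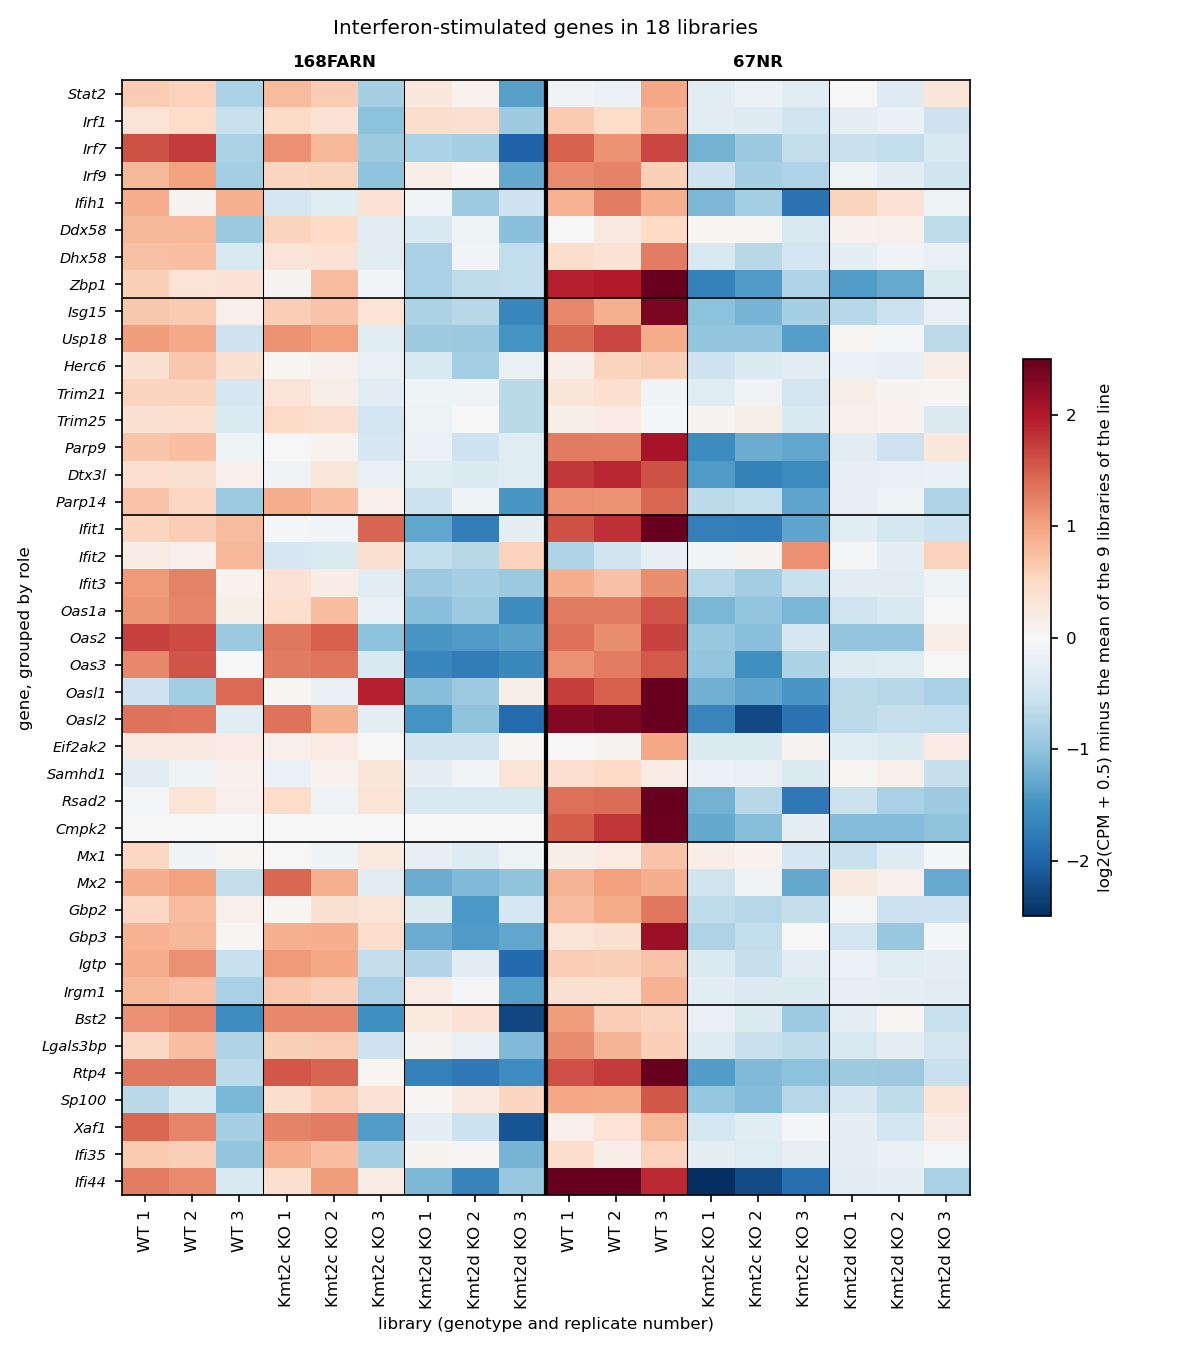
Heat map of the 41 genes, grouped by role, in the 18 libraries, as log2(CPM + 0.5) minus the mean over the 9 libraries of the line. In 67NR the WT libraries stand above both KOs for most genes. In 168FARN replicate 3 is the lowest library of every genotype for 19 of the 39 genes tested. It is the highest of every genotype for 4, *Ifit1*, *Ifit2*, *Oasl1* and *Samhd1*. For some others, such as *Rtp4*, replicate 3 is low in WT and *Kmt2c* KO but not in *Kmt2d* KO.

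The transcription factors are the members that carry the signal to DNA. *Stat2*, a subunit of the ISGF3 complex, stood in 168FARN at 59.4, 56.7 and 21.6 CPM in WT, 65.7, 59.5 and 21 in *Kmt2c* KO and 45.7, 40.3 and 14.4 in *Kmt2d* KO. Its 67NR libraries gave 19.6, 18.8 and 41.1 CPM in WT, 17.4, 18.8 and 17 in *Kmt2c* KO and 20.6, 16.5 and 25.8 in *Kmt2d* KO. Replicate 3 was the lowest library of every genotype in 168FARN, with a replicate 3 effect of -1.52 (SE 0.09, edgeR adjusted p = 4.3e-08). The genotypes overlapped there, and no KO difference was called in either line. In 67NR, WT replicate 3 was above the other 8 libraries. *Irf9*, the DNA-binding subunit of the same complex, was measured in 168FARN at 20.0, 22.5 and 5.9 CPM in WT, 16.1, 16.4 and 5.23 in *Kmt2c* KO and 12.2, 11.4 and 4.22 in *Kmt2d* KO, and its replicate 3 effect was -1.66 (SE 0.13, edgeR adjusted p = 2.8e-07). The *Kmt2d* KO difference was -0.8 with genotype alone and -0.74 (SE 0.14, edgeR adjusted p = 0.0078) blocked. In 67NR *Irf9* read 19.8, 20.4 and 12.8 CPM in WT, 5.71, 4.5 and 4.67 in *Kmt2c* KO and 7.6, 6.9 and 5.77 in *Kmt2d* KO, with every KO library below every WT library and fold changes of -1.83 (SE 0.24, edgeR adjusted p = 0.00037) in *Kmt2c* KO and -1.39 (SE 0.23, edgeR adjusted p = 0.0028) in *Kmt2d* KO.

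*Irf1*, a factor induced by interferons that binds the same promoter elements, gave in 168FARN 37.4, 40.7 and 19.6 CPM in WT, 41, 37.6 and 14.2 in *Kmt2c* KO and 39.7, 39.1 and 15.5 in *Kmt2d* KO. Genotypes were alike there, with blocked fold changes of -0.15 and -0.11, and replicate 3 was lower in each, at -1.26 (SE 0.11, edgeR adjusted p = 1.1e-06). The 67NR values were 153, 134 and 174 CPM in WT, 80.7, 77.4 and 68.4 in *Kmt2c* KO and 82.9, 85.8 and 67 in *Kmt2d* KO. All KO libraries were below all WT libraries, at -1.02 (SE 0.16, edgeR adjusted p = 0.0012) in *Kmt2c* KO and -0.96 (SE 0.16, edgeR adjusted p = 0.0027) in *Kmt2d* KO. *Irf7*, which drives the type I interferon genes, had in 168FARN 15.5, 17.4 and 2.56 CPM in WT, 11.2, 8.94 and 2.38 in *Kmt2c* KO and 2.55, 2.47 and 0.814 in *Kmt2d* KO. It was the factor with the largest differences. The *Kmt2d* KO libraries were all below WT, with a blocked fold change of -2.45 (SE 0.23, edgeR adjusted p = 7.4e-05), and the replicate 3 effect was -2.23 (SE 0.21, edgeR adjusted p = 1.4e-06). In 67NR *Irf7* was 7.48, 5.77 and 8.64 CPM in WT, 0.774, 1.01 and 1.4 in *Kmt2c* KO and 1.45, 1.38 and 1.72 in *Kmt2d* KO, again without overlap, at -2.78 (SE 0.31, edgeR adjusted p = 0.00016) and -2.27 (SE 0.31, edgeR adjusted p = 0.00083). In all, 3 of the 4 factors were called lower in each KO of 67NR, 2 of 4 in blocked 168FARN *Kmt2d* KO, and 4 of 4 in replicate 3 of 168FARN. Of all genes, 17.4% were called lower in 67NR *Kmt2c* KO and 11.6% in 67NR *Kmt2d* KO. The shares were 3.17% in blocked 168FARN *Kmt2d* KO and 25.7% in replicate 3 of 168FARN.

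The nucleic acid sensors include some of the lowest members in 168FARN. *Ifih1*, which encodes the double-stranded RNA sensor MDA5, read 1.26, 0.476 and 1.23 CPM in WT, 0.195, 0.259 and 0.694 in *Kmt2c* KO and 0.39, 0 and 0.148 in *Kmt2d* KO in 168FARN, at or below 1.26 CPM in every library. Its blocked *Kmt2d* KO fold change was -2.39 (SE 0.67, edgeR adjusted p = 0.052) and lost its call when single libraries were left out. In 67NR the values were 16.9, 22.6 and 17.1 CPM in WT, 3.88, 4.77 and 2.15 in *Kmt2c* KO and 13.6, 11.7 and 8.28 in *Kmt2d* KO. The 3 *Kmt2c* KO libraries lay below all others, at -2.38 (SE 0.32, edgeR adjusted p = 0.00051) against WT, while in *Kmt2d* KO the fold change was -0.76 (SE 0.31, edgeR adjusted p = 0.11), and was called only when blocked, at -0.78 (SE 0.2, edgeR adjusted p = 0.0095). *Ddx58*, the gene of the RNA sensor RIG-I, had in 168FARN 51, 51.1 and 14.8 CPM in WT, 42.2, 40.4 and 23.7 in *Kmt2c* KO and 21.8, 26.6 and 13.6 in *Kmt2d* KO. It showed a replicate 3 effect of -1.12 (SE 0.18, edgeR adjusted p = 0.00016) and a blocked *Kmt2d* KO fold change of -0.8 (SE 0.2, edgeR adjusted p = 0.035), with overlap between groups. In 67NR *Ddx58* gave 34.1, 40.4 and 49.3 CPM in WT, 36, 35.4 and 25.9 in *Kmt2c* KO and 37.2, 37.7 and 22.2 in *Kmt2d* KO. It was one of the members with no call in either KO of that line.

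*Dhx58*, which encodes LGP2, a regulator of both sensors, gave 8.35, 8.55 and 3.6 CPM in WT, 6.18, 6.37 and 3.92 in *Kmt2c* KO and 2.55, 4.59 and 3 in *Kmt2d* KO in 168FARN. Its replicate 3 effect in that line was -0.73 (SE 0.21, edgeR adjusted p = 0.0085). The blocked *Kmt2d* KO fold change was -0.95 (SE 0.25, edgeR adjusted p = 0.039), and that of *Kmt2c* KO was -0.27. In 67NR the values were 5.48, 5.2 and 10.3 CPM in WT, 2.84, 2.25 and 2.66 in *Kmt2c* KO and 3.3, 3.64 and 3.38 in *Kmt2d* KO. Neither KO overlapped WT, at -1.43 (SE 0.3, edgeR adjusted p = 0.0057) and -1.02 (SE 0.3, edgeR adjusted p = 0.038). The *Kmt2d* KO fold change was -0.63 without WT replicate 3, and its call was lost without *Kmt2d* KO replicate 1. *Zbp1*, a sensor of Z-form nucleic acid that can trigger cell death, was low in 168FARN, at 0.829, 0.625 and 0.627 CPM in WT, 0.423, 1.01 and 0.347 in *Kmt2c* KO and 0, 0.0707 and 0.074 in *Kmt2d* KO. The *Kmt2d* KO libraries held 3 counts in total and the WT libraries 73, a ratio of 14.6 (exact 95% interval 4.82 to 72.6, counting error only). In 67NR *Zbp1* gave 7.97, 8.2 and 16.4 CPM in WT, 0.19, 0.333 and 0.823 in *Kmt2c* KO and 0.344, 0.422 and 1.23 in *Kmt2d* KO. Every KO library was below every WT library, at -4.64 (SE 0.7, edgeR adjusted p = 0.00096) and -4.05 (SE 0.68, edgeR adjusted p = 0.0028), and replicate 3 was the highest library of each genotype, at 1.4 (SE 0.23, edgeR adjusted p = 7e-04).

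Among the genes of ISG15, ubiquitin and ADP-ribose, *Dtx3l* had the smallest p of any member in a comparison of genotypes. It encodes a ubiquitin ligase that works as a pair with PARP9, and its 67NR values were 40.5, 43.7 and 35.9 CPM in WT, 3.98, 3.22 and 3.48 in *Kmt2c* KO and 9.99, 10.1 and 10.2 in *Kmt2d* KO. The 3 groups did not overlap one another, with *Kmt2d* KO between the others. The fold changes were -3.49 (SE 0.17, edgeR adjusted p = 2.7e-06) and -1.99 (SE 0.16, edgeR adjusted p = 4.3e-05), and the *Kmt2c* KO against *Kmt2d* KO difference was -1.5 (SE 0.16, edgeR adjusted p = 0.0087). In 168FARN the values were 3.12, 3.04 and 2.44 CPM in WT, 2.05, 2.8 and 1.89 in *Kmt2c* KO and 1.69, 1.62 and 1.7 in *Kmt2d* KO, and no difference was called. All 3 *Kmt2d* KO libraries were below all 3 WT libraries there, as for 5.65% of all genes. The blocked *Kmt2d* KO fit called *Dtx3l* in some of the fits that left out 1 library. *Parp9*, the ADP-ribosyltransferase partner, read 37.9, 37 and 64 CPM in WT, 4.74, 6.08 and 5.86 in *Kmt2c* KO and 12.4, 10.4 and 18.1 in *Kmt2d* KO in 67NR, in the same order, at -3.06 (SE 0.3, edgeR adjusted p = 7.3e-05) and -1.77 (SE 0.28, edgeR adjusted p = 0.0022). Its 168FARN values were 10.4, 10.8 and 5.67 CPM in WT, 6.21, 6.66 and 4.56 in *Kmt2c* KO and 5.58, 4.24 and 4.96 in *Kmt2d* KO, all *Kmt2d* KO libraries being below WT, with a blocked fold change of -0.79 (SE 0.21, edgeR adjusted p = 0.042). *Dtx3l* and *Parp9* overlap at their ends on opposite strands, and no source used here gives the strand setting of the counting, so reads of the shared stretch may have been counted for either gene.

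*Parp14*, which attaches single ADP-ribose units to proteins, gave in 67NR 23.2, 22.9 and 28.6 CPM in WT, 6.41, 6.6 and 3.82 in *Kmt2c* KO and 8.9, 9.45 and 5.82 in *Kmt2d* KO. Both KOs were lower without overlap, at -2.15 (SE 0.28, edgeR adjusted p = 0.00038) and -1.63 (SE 0.27, edgeR adjusted p = 0.0027). In 168FARN it was at 2.78, 2.35 and 0.557 CPM in WT, 3.25, 2.85 and 1.68 in *Kmt2c* KO and 0.866, 1.34 and 0.222 in *Kmt2d* KO, with a replicate 3 effect of -1.57 (SE 0.33, edgeR adjusted p = 0.0011) and a blocked *Kmt2d* KO fold change of -1.24 (SE 0.39, edgeR adjusted p = 0.082). *Usp18*, the protease that removes ISG15 and restrains the interferon receptor, had in 67NR 21.4, 25.2 and 15 CPM in WT, 3.6, 3.6 and 2.61 in *Kmt2c* KO and 7.91, 7.34 and 4.66 in *Kmt2d* KO. The order WT, *Kmt2d* KO, *Kmt2c* KO held without overlap, at -2.65 (SE 0.29, edgeR adjusted p = 0.00015) in *Kmt2c* KO and -1.63 (SE 0.28, edgeR adjusted p = 0.0032) in *Kmt2d* KO. In 168FARN *Usp18* read 5.37, 5.03 and 1.49 CPM in WT, 5.69, 5.29 and 1.81 in *Kmt2c* KO and 1.04, 0.989 and 0.518 in *Kmt2d* KO. WT and *Kmt2c* KO were alike there, at 0.14 blocked, and *Kmt2d* KO was lower than every other library of the line, at -2.12 (SE 0.26, edgeR adjusted p = 0.00046) blocked.

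*Trim25*, a ubiquitin ligase that acts on RIG-I, moved least with genotype. Its 67NR values were 80.7, 83.3 and 70.7 CPM in WT, 76.2, 80.0 and 56 in *Kmt2c* KO and 79, 76.9 and 57.1 in *Kmt2d* KO, and its 168FARN values were 59.9, 60.7 and 35.6 CPM in WT, 64.4, 60.9 and 33 in *Kmt2c* KO and 42.4, 46.4 and 28.5 in *Kmt2d* KO. No KO difference was called in either line, and replicate 3 was the lowest library of each genotype in both, with an effect of -0.78 (SE 0.09, edgeR adjusted p = 1.3e-05) in 168FARN and -0.38 (SE 0.1, edgeR adjusted p = 0.012) in 67NR, the latter under the fold threshold. The ubiquitin-like modifier *Isg15* was lower in all KO libraries of 67NR, at -2.76 (SE 0.39, edgeR adjusted p = 0.00066) and -2.18 (SE 0.38, edgeR adjusted p = 0.0035). It was also lower in *Kmt2d* KO of 168FARN, where it read 25.6, 25.4 and 17.4 CPM in WT and 9.01, 9.75 and 4.81 in *Kmt2d* KO, at -1.57 (SE 0.15, edgeR adjusted p = 6.7e-05) blocked. *Herc6*, the mouse ISG15 ligase, was lower in 67NR *Kmt2c* KO, at -0.86 (SE 0.19, edgeR adjusted p = 0.0068), and gave -0.51 blocked, under the fold threshold, in *Kmt2d* KO. In 168FARN all 3 libraries of each KO lay below WT, and the blocked fold changes were -0.5, not called, in *Kmt2c* KO and -0.95 (SE 0.19, edgeR adjusted p = 0.01) in *Kmt2d* KO. *Trim21*, an antibody receptor in the cytosol with ubiquitin ligase activity, was not called in any KO. Of these 8 enzymes, 6 were called lower in 67NR *Kmt2c* KO and 5 in *Kmt2d* KO, against 5 in blocked 168FARN *Kmt2d* KO. The shares of all genes called lower were 17.4%, 11.6% and 3.17% in that order.

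**Figure D2:**
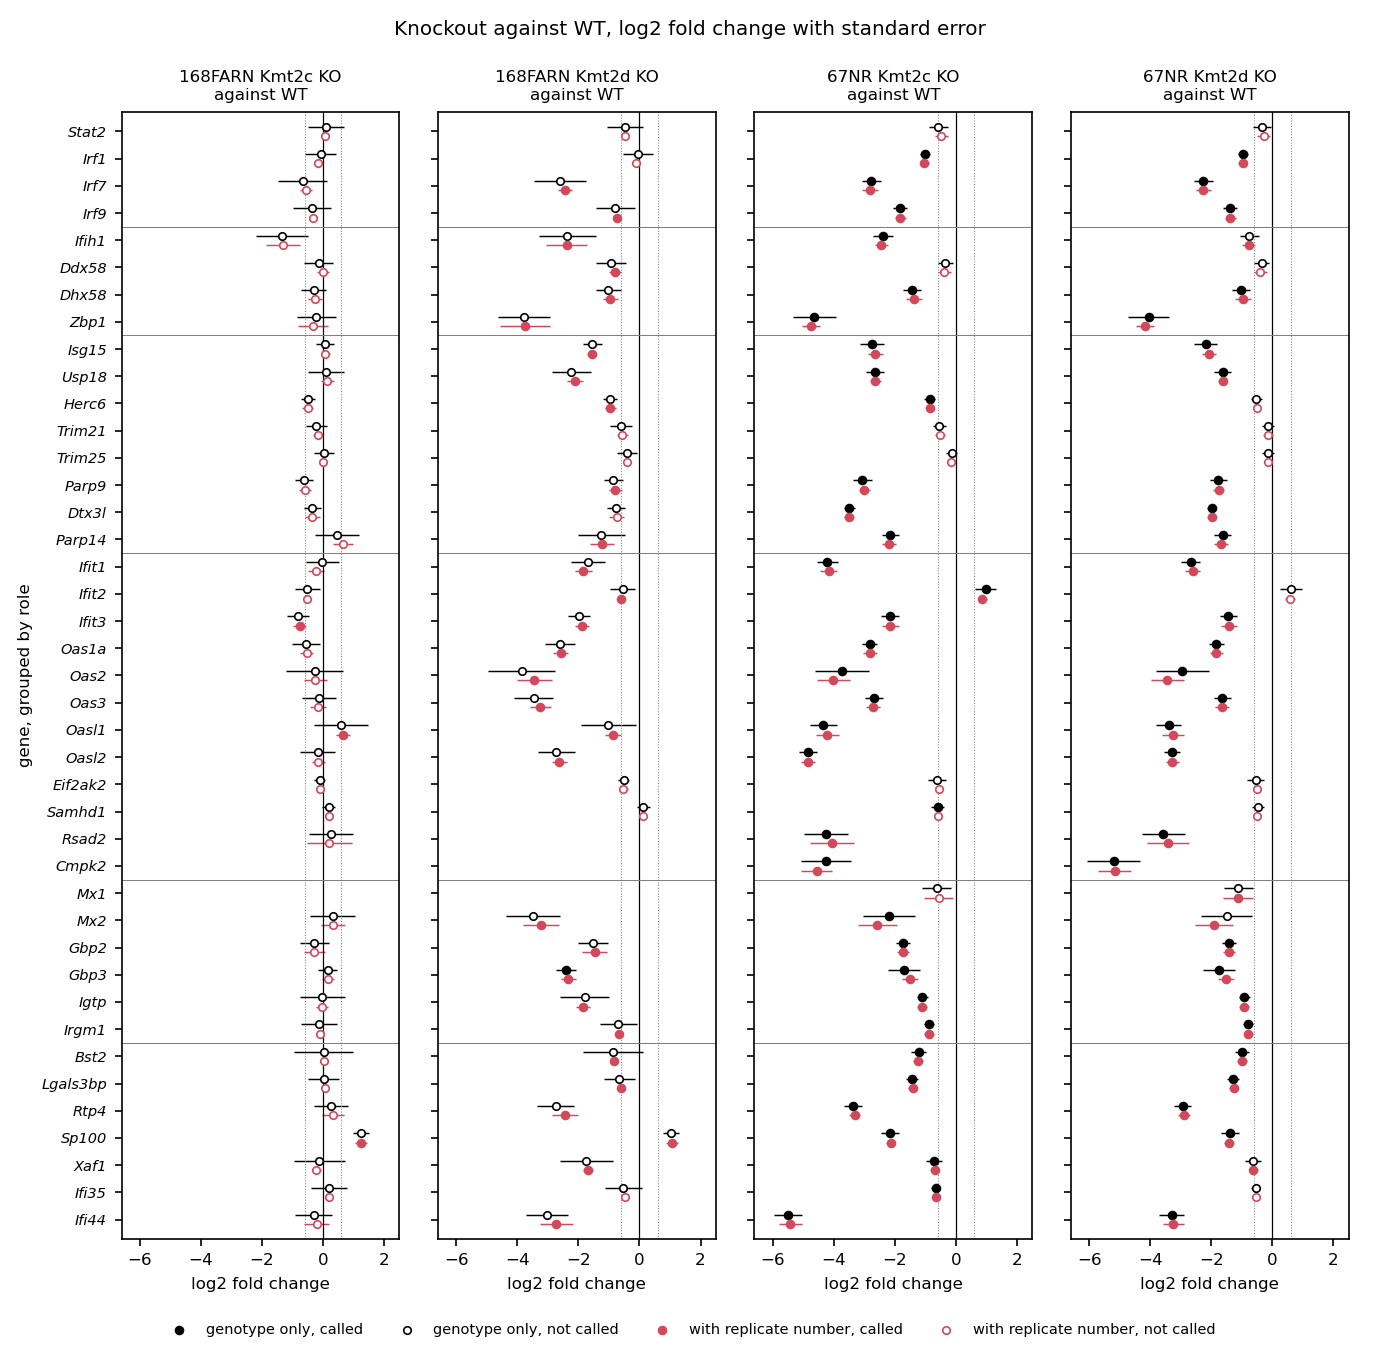
Log2 fold change of each KO against WT with its standard error, by gene, in 4 panels. Black points come from the fit with genotype alone and red points from the fit with replicate number, filled points were called, and dotted lines mark 0.6. *Rsad2* in 168FARN *Kmt2d* KO had 0 counts and is not drawn, and *Mx1* and *Cmpk2* were not tested in 168FARN. The black bars are wide and open in 168FARN *Kmt2d* KO, where 30 red points are called lower, and in 67NR most points of both colours lie left of the line at 0.

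The effectors that act on RNA, translation and nucleotides held most of the largest differences. *Oasl2*, a relative of the oligoadenylate synthetases, stood in 67NR at 35.8, 37.1 and 55 CPM in WT, 1.85, 1.05 and 1.55 in *Kmt2c* KO and 4.2, 4.43 and 4.3 in *Kmt2d* KO. The 3 groups did not overlap, at -4.84 (SE 0.29, edgeR adjusted p = 5.4e-06) in *Kmt2c* KO and -3.3 (SE 0.26, edgeR adjusted p = 4.3e-05) in *Kmt2d* KO. In 168FARN it stood at 14.7, 14.5 and 4.41 CPM in WT, 14.6, 10.4 and 4.48 in *Kmt2c* KO and 1.6, 2.47 and 1.07 in *Kmt2d* KO. There *Kmt2d* KO was below every other library, at -2.72 with genotype alone and -2.63 (SE 0.24, edgeR adjusted p = 6.4e-05) blocked, *Kmt2c* KO gave -0.15, and replicate 3 was lowest in each genotype, at -1.46 (SE 0.2, edgeR adjusted p = 4.2e-05). Its neighbour *Oasl1*, which restrains translation of *Irf7*, ran the other way by replicate. In 168FARN *Oasl1* read 2.02, 1.46 and 9.08 CPM in WT, 3.15, 2.67 and 13.3 in *Kmt2c* KO and 1.21, 1.41 and 3.48 in *Kmt2d* KO, so replicate 3 was the highest library of each genotype, at 2.08 (SE 0.19, edgeR adjusted p = 1.3e-06), while the blocked KO fold changes were 0.66 (SE 0.22, edgeR adjusted p = 0.086) for *Kmt2c* KO and -0.86 (SE 0.26, edgeR adjusted p = 0.069) for *Kmt2d* KO. In 67NR *Oasl1* gave 8.34, 7.11 and 20.0 CPM in WT, 0.666, 0.571 and 0.484 in *Kmt2c* KO and 1.2, 1.13 and 1.02 in *Kmt2d* KO. WT replicate 3 was the highest of the 9 libraries, and both KOs were lower without overlap, at -4.35 (SE 0.44, edgeR adjusted p = 9.2e-05) and -3.4 (SE 0.42, edgeR adjusted p = 0.00053).

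*Ifit1*, which binds RNA whose cap lacks a methyl group, read 12.8, 15.1 and 25.9 CPM in WT, 0.842, 0.825 and 1.26 in *Kmt2c* KO and 3.09, 2.72 and 2.54 in *Kmt2d* KO in 67NR. All 3 groups were separate, at -4.21 (SE 0.34, edgeR adjusted p = 2.6e-05) and -2.68 (SE 0.32, edgeR adjusted p = 0.00039). In 168FARN the values were 12.4, 13.2 and 14.9 CPM in WT, 8.16, 7.98 and 23.9 in *Kmt2c* KO and 3.12, 2.19 and 7.18 in *Kmt2d* KO. Replicate 3 was the highest library of every genotype, at 1.07 (SE 0.22, edgeR adjusted p = 0.0013), and within each replicate number *Kmt2d* KO was below WT, at -1.84 (SE 0.28, edgeR adjusted p = 0.003) blocked. *Ifit2*, its neighbour, was the exception of the list in 67NR, at 25.2, 29.8 and 36.9 CPM in WT, 40.4, 44.6 and 94.4 in *Kmt2c* KO and 41, 36.2 and 63.4 in *Kmt2d* KO. Every *Kmt2c* KO library was above every WT library, at 0.97 (SE 0.35, edgeR adjusted p = 0.06), a call that was lost without WT replicate 1, WT replicate 2 or *Kmt2c* KO replicate 3, when the fold change fell to as little as 0.48. In *Kmt2d* KO its fold change was 0.61 (SE 0.35, edgeR adjusted p = 0.25). In 168FARN *Ifit2* gave 61, 58.8 and 96.3 CPM in WT, 40.1, 41.7 and 69.8 in *Kmt2c* KO and 34.9, 33 and 79.8 in *Kmt2d* KO, again with replicate 3 highest, at 0.9 (SE 0.1, edgeR adjusted p = 9.2e-06), and the blocked *Kmt2d* KO fold change was -0.62 (SE 0.13, edgeR adjusted p = 0.011).

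*Oas1a*, an oligoadenylate synthetase whose product activates RNase L, had in 67NR 10.3, 10.4 and 12.5 CPM in WT, 1.48, 1.71 and 1.5 in *Kmt2c* KO and 2.6, 2.87 and 3.87 in *Kmt2d* KO. Both KOs were lower without overlap, at -2.82 (SE 0.24, edgeR adjusted p = 3.3e-05) and -1.83 (SE 0.23, edgeR adjusted p = 0.00059). In 168FARN it had 5.77, 6.34 and 2.74 CPM in WT, 3.41, 4.51 and 2.11 in *Kmt2c* KO and 0.909, 1.06 and 0.481 in *Kmt2d* KO. *Kmt2d* KO was below all other libraries of the line, at -2.58 (SE 0.24, edgeR adjusted p = 6.7e-05) blocked, beside a replicate 3 effect of -1.02 (SE 0.2, edgeR adjusted p = 0.00053). Its relatives *Oas2* and *Oas3* were also lower in 168FARN *Kmt2d* KO, at -3.45 (SE 0.57, edgeR adjusted p = 0.0043) and -3.25 (SE 0.35, edgeR adjusted p = 0.00016) blocked. In 67NR they gave -3.74 and -2.68 in *Kmt2c* KO and -2.95 and -1.64 in *Kmt2d* KO, all called. For *Oas2* in 168FARN, replicate 3 of WT and *Kmt2c* KO, at 0.604 and 0.534 CPM, came close to the 0.26, 0.283 and 0.333 CPM of *Kmt2d* KO. *Ifit3* was lower in 67NR, at -2.15 and -1.44, and in 168FARN it was called lower in both KOs when blocked, at -0.77 (SE 0.21, edgeR adjusted p = 0.036) in *Kmt2c* KO and -1.88 (SE 0.23, edgeR adjusted p = 5e-04) in *Kmt2d* KO. The *Oas1* and *Ifit* genes have near-identical relatives in the mouse, and their counts may be split among copies.

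*Rsad2*, which encodes the antiviral enzyme viperin, was read 24 times in 168FARN WT and 0 times in *Kmt2d* KO, a difference of at least 4.81-fold with *Kmt2d* KO set at a floor of 3 counts over the group. In 67NR *Rsad2* read 5.32, 5.4 and 19 CPM in WT, 0.489, 0.888 and 0.145 in *Kmt2c* KO and 1.03, 0.766 and 0.692 in *Kmt2d* KO, with no overlap and fold changes of -4.25 (SE 0.72, edgeR adjusted p = 0.0018) and -3.57 (SE 0.7, edgeR adjusted p = 0.0062). *Cmpk2*, a mitochondrial nucleotide kinase next to it on chromosome 12, had 0 counts in all 9 libraries of 168FARN. In 67NR it read 3.24, 4.04 and 6.8 CPM in WT, 0.0408, 0.127 and 0.605 in *Kmt2c* KO and 0.115, 0.115 and 0.154 in *Kmt2d* KO, and its *Kmt2d* KO fold change of -5.19 (SE 0.87, edgeR adjusted p = 0.0028) was the lowest of the list in that KO. *Eif2ak2*, the kinase PKR that halts translation, was not called in any KO, with fold changes between -0.61 and -0.11. *Samhd1*, which degrades deoxynucleotides, was not called in 168FARN, at 0.18 and 0.12, and was called lower in 67NR *Kmt2c* KO at -0.6 (SE 0.2, edgeR adjusted p = 0.045), a call lost when blocked. Of the 12 effectors, 10 were called lower and 1 higher in 67NR *Kmt2c* KO, with a median of -3.28, and 9 lower in *Kmt2d* KO, with a median of -2.26. Over all genes, 17.4% were called lower and 17.9% higher in that *Kmt2c* KO, and 11.6% lower in that *Kmt2d* KO. Blocked, 9 of the 11 tested were called lower in 168FARN *Kmt2d* KO, against 3.17% of all genes, with a median of -1.88.

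**Figure D3:**
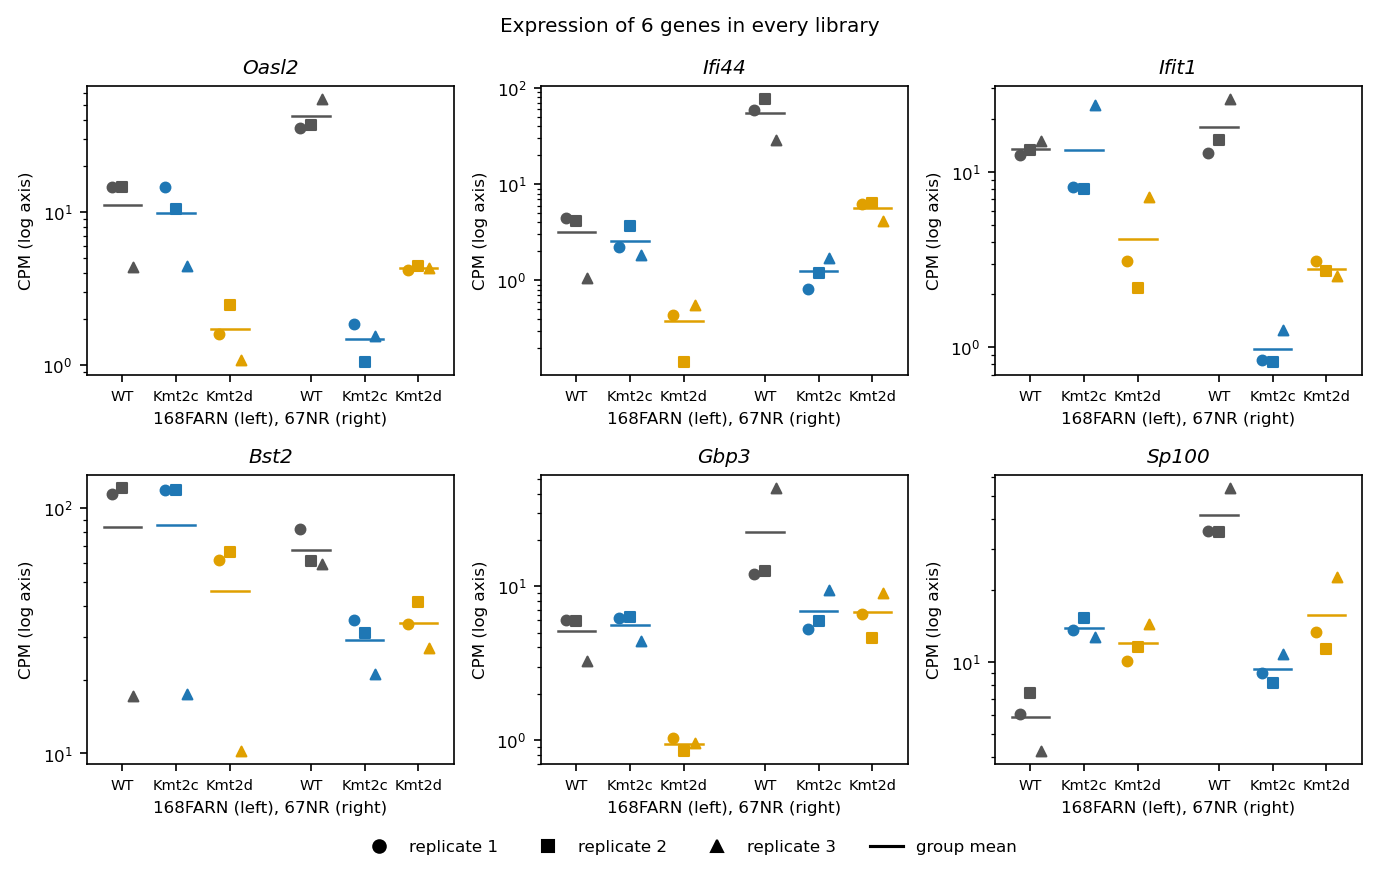
CPM of 6 members in each library on a log axis, by line and genotype, with a marker for each replicate number and a line at the group mean. *Oasl2*, *Ifi44* and *Ifit1* show 3 separate levels in 67NR, *Bst2* shows the drop of replicate 3 in 168FARN, *Gbp3* shows the low *Kmt2d* KO libraries of 168FARN, and *Sp100* is higher than WT in both KOs of 168FARN and lower in both KOs of 67NR.

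The interferon-induced GTPases restrain intracellular pathogens. *Gbp3*, a guanylate-binding protein, was the only member called in 168FARN with genotype alone, at 6.07, 5.92 and 3.25 CPM in WT, 6.18, 6.27 and 4.4 in *Kmt2c* KO and 1.04, 0.848 and 0.962 in *Kmt2d* KO. *Kmt2d* KO was below all other libraries, at -2.41 (SE 0.33, edgeR adjusted p = 0.049), and the call was lost in 7 of the 9 fits that left out 1 library. Blocked, the fold change was -2.33 (SE 0.25, edgeR adjusted p = 0.00014), and it was kept in every such fit. In 67NR *Gbp3* read 12, 12.5 and 43.4 CPM in WT, 5.31, 5.96 and 9.39 in *Kmt2c* KO and 6.64, 4.64 and 9.07 in *Kmt2d* KO. WT replicate 3 was the highest library by far, replicate 3 was also highest in each KO, at 1.13 (SE 0.21, edgeR adjusted p = 0.0017), and the KO fold changes were -1.71 (SE 0.52, edgeR adjusted p = 0.031) and -1.74 (SE 0.52, edgeR adjusted p = 0.041). Without WT replicate 3 they were -0.83 and -0.85, still called. The *Kmt2c* KO call was lost without replicate 1 or 2 of that KO, and the *Kmt2d* KO call without replicate 1 or 2 of that one. *Gbp2*, its neighbour, gave in 67NR 20.6, 22.8 and 29.9 CPM in WT, 7.42, 6.93 and 7.58 in *Kmt2c* KO and 11.4, 7.91 and 8.1 in *Kmt2d* KO. The KO libraries lay below WT without overlap, at -1.74 (SE 0.22, edgeR adjusted p = 0.00031) and -1.42 (SE 0.22, edgeR adjusted p = 0.0016). In 168FARN it gave 2.52, 3.16 and 1.81 CPM in WT, 1.69, 2.25 and 2.16 in *Kmt2c* KO and 1.17, 0.283 and 1.07 in *Kmt2d* KO, with a blocked *Kmt2d* KO fold change of -1.46 (SE 0.41, edgeR adjusted p = 0.055) and a replicate 3 effect of -0.08.

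*Irgm1* and *Igtp* encode GTPases of the immunity-related family that guard the membranes around intracellular pathogens. *Irgm1* stood in 168FARN at 40.8, 38 and 12.8 CPM in WT, 36.5, 34.6 and 12.7 in *Kmt2c* KO and 26.2, 22.2 and 8.4 in *Kmt2d* KO. Replicate 3 was the lowest of each genotype, at -1.54 (SE 0.1, edgeR adjusted p = 7.6e-08), and the blocked *Kmt2d* KO fold change was -0.67 (SE 0.11, edgeR adjusted p = 0.003). The 67NR values were 42.2, 42.8 and 59.8 CPM in WT, 27.1, 25.4 and 25.6 in *Kmt2c* KO and 28.3, 27.7 and 27 in *Kmt2d* KO, the KO libraries being close to one another and below WT, at -0.89 (SE 0.16, edgeR adjusted p = 0.0028) and -0.8 (SE 0.16, edgeR adjusted p = 0.0075). *Igtp* read 6.03, 7.18 and 1.88 CPM in WT, 6.8, 6.3 and 1.79 in *Kmt2c* KO and 1.6, 2.4 and 0.407 in *Kmt2d* KO in 168FARN. The size of its replicate 3 effect, -1.91 (SE 0.2, edgeR adjusted p = 4.5e-06), was that of its blocked *Kmt2d* KO effect, -1.85 (SE 0.23, edgeR adjusted p = 0.00056), and *Kmt2d* KO replicates 1 and 2 came close to replicate 3 of the other genotypes. In 67NR it read 11.7, 11.5 and 12.4 CPM in WT, 5.67, 4.81 and 6.05 in *Kmt2c* KO and 6.66, 5.94 and 6.28 in *Kmt2d* KO. Neither KO overlapped WT, at -1.11 (SE 0.18, edgeR adjusted p = 0.0013) and -0.92 (SE 0.18, edgeR adjusted p = 0.0058).

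The dynamin-like antiviral GTPase *Mx2* had in 168FARN 2.09, 2.29 and 0.418 CPM in WT, 3.22, 2.07 and 0.64 in *Kmt2c* KO and 0.0866, 0.141 and 0.185 in *Kmt2d* KO. It was under 0.2 CPM in the 3 *Kmt2d* KO libraries, at -3.22 (SE 0.6, edgeR adjusted p = 0.0071) blocked, with a replicate 3 effect of -1.87 (SE 0.45, edgeR adjusted p = 0.0026). In 67NR *Mx2* gave 2.12, 2.44 and 2.21 CPM in WT, 0.516, 0.857 and 0.0968 in *Kmt2c* KO and 1.18, 1.07 and 0.102 in *Kmt2d* KO. Replicate 3 was the lowest library of both KOs but not of WT, the *Kmt2c* KO fold change was -2.18 (SE 0.85, edgeR adjusted p = 0.078), and in *Kmt2d* KO it was called only when blocked, at -1.91 (SE 0.62, edgeR adjusted p = 0.028). *Mx1* had 21 counts in 168FARN WT and 3 in *Kmt2d* KO, a ratio of 4.21 (exact 95% interval 1.26 to 22.1, counting error only). In 67NR its fold changes were -0.63 (SE 0.47, edgeR adjusted p = 0.34) in *Kmt2c* KO and -1.11 (SE 0.48, edgeR adjusted p = 0.13) in *Kmt2d* KO, the latter called when blocked, at -1.12 (SE 0.49, edgeR adjusted p = 0.09). BALB/c mice carry a defective *Mx1* gene. All 5 GTPases tested were called lower in blocked 168FARN *Kmt2d* KO, against 3.17% of all genes, with a median of -1.85. In *Kmt2c* KO of that line the blocked median was -0.03 and 0 were called, where all genes gave 3.57% lower and 3.66% higher.

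The remaining members are membrane, secreted and nuclear proteins. *Bst2*, the tetherin that holds budding virus at the cell surface, had the smallest p of all replicate 3 effects. In 168FARN it read 115, 121 and 17.1 CPM in WT, 119, 119 and 17.4 in *Kmt2c* KO and 61.5, 66.3 and 10.2 in *Kmt2d* KO. Replicate 3 was several times below replicates 1 and 2 in each genotype, at -2.74 (SE 0.1, edgeR adjusted p = 9.7e-10), and the *Kmt2d* KO fold change was -0.87 (SE 0.97, edgeR adjusted p = 1) with genotype alone and -0.84 (SE 0.1, edgeR adjusted p = 3e-04) blocked. In 67NR it read 82.5, 61.1 and 59.2 CPM in WT, 35.1, 31 and 21.1 in *Kmt2c* KO and 33.9, 41.4 and 26.9 in *Kmt2d* KO, every KO library being below WT, at -1.22 (SE 0.24, edgeR adjusted p = 0.0045) and -0.99 (SE 0.24, edgeR adjusted p = 0.018). *Xaf1*, a partner of the apoptosis inhibitor XIAP, gave 38.6, 33.3 and 7.62 CPM in WT, 33.4, 34.6 and 4.99 in *Kmt2c* KO and 11.7, 9.47 and 2.74 in *Kmt2d* KO in 168FARN. The replicate 3 effect was -2.35 (SE 0.16, edgeR adjusted p = 9.6e-08) and the blocked *Kmt2d* KO effect -1.69 (SE 0.17, edgeR adjusted p = 9.4e-05). In 67NR *Xaf1* gave 16.8, 19.6 and 27.6 CPM in WT, 11.2, 12.6 and 15 in *Kmt2c* KO and 12.8, 11 and 17.6 in *Kmt2d* KO, with smaller differences of -0.72 (SE 0.25, edgeR adjusted p = 0.053) in *Kmt2c* KO and -0.63 (SE 0.25, edgeR adjusted p = 0.11) in *Kmt2d* KO, the latter called when blocked.

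*Lgals3bp*, a secreted glycoprotein that binds galectins, stood in 168FARN at 23.9, 28.2 and 9.57 CPM in WT, 25.4, 25.8 and 11.5 in *Kmt2c* KO and 17.3, 14.4 and 7.4 in *Kmt2d* KO. It showed a replicate 3 effect of -1.24 (SE 0.12, edgeR adjusted p = 2.6e-06) and a blocked *Kmt2d* KO fold change of -0.6 (SE 0.14, edgeR adjusted p = 0.022), just past the threshold. 67NR gave 48.8, 38.7 and 32.5 CPM in WT, 16.9, 14.2 and 13.6 in *Kmt2c* KO and 15.9, 17.9 and 15.3 in *Kmt2d* KO. The KOs did not overlap WT and were close to each other, at -1.43 (SE 0.19, edgeR adjusted p = 0.00043) and -1.29 (SE 0.19, edgeR adjusted p = 0.0013). *Ifi35*, an interferon-induced leucine zipper protein, read 27.4, 26.3 and 8.43 CPM in WT, 32.6, 29.2 and 9.42 in *Kmt2c* KO and 18, 17.6 and 7.44 in *Kmt2d* KO in 168FARN and was not called in either KO there, with a replicate 3 effect of -1.55 (SE 0.12, edgeR adjusted p = 3e-07). In 67NR its values were 35.5, 29.2 and 39 CPM in WT, 22.1, 21.1 and 22.5 in *Kmt2c* KO and 22.3, 23.4 and 25.3 in *Kmt2d* KO. The *Kmt2c* KO fold change of -0.66 (SE 0.15, edgeR adjusted p = 0.0091) was called and the *Kmt2d* KO fold change of -0.55 (SE 0.15, edgeR adjusted p = 0.03) was under the fold threshold, although neither KO overlapped WT.

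*Ifi44*, an interferon-induced cytosolic protein, had the lowest fold change of the list in *Kmt2c* KO of 67NR. Its values there were 59.1, 76.8 and 28.9 CPM in WT, 0.815, 1.21 and 1.69 in *Kmt2c* KO and 6.24, 6.44 and 4.13 in *Kmt2d* KO. The 3 groups did not overlap, at -5.49 (SE 0.46, edgeR adjusted p = 2.9e-05) in *Kmt2c* KO, -3.29 (SE 0.41, edgeR adjusted p = 0.00051) in *Kmt2d* KO and -2.19 (SE 0.4, edgeR adjusted p = 0.053) between the KOs. In 168FARN *Ifi44* gave 4.44, 4.11 and 1.07 CPM in WT, 2.21, 3.71 and 1.81 in *Kmt2c* KO and 0.433, 0.141 and 0.555 in *Kmt2d* KO. The *Kmt2d* KO libraries were all below the others, at -2.72 (SE 0.53, edgeR adjusted p = 0.011) blocked, and the replicate 3 effect was -0.94 (SE 0.43, edgeR adjusted p = 0.07). *Rtp4*, a chaperone of membrane receptors, was lower in both KOs of 67NR, at -3.38 (SE 0.3, edgeR adjusted p = 4.1e-05) and -2.94 (SE 0.29, edgeR adjusted p = 0.00014), and in 168FARN it read 30.1, 29.9 and 7.29 CPM in WT, 35.4, 32.9 and 12.2 in *Kmt2c* KO and 3.29, 3.04 and 3.66 in *Kmt2d* KO, at -2.44 (SE 0.41, edgeR adjusted p = 0.013) blocked.

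*Sp100*, a component of nuclear bodies, was called in opposite directions in the lines, in both KOs, when 168FARN was blocked. In 168FARN it read 6.03, 7.44 and 4.23 CPM in WT, 13.6, 15.3 and 12.8 in *Kmt2c* KO and 10.1, 11.6 and 14.5 in *Kmt2d* KO. Every KO library was above every WT library, as for 5.34% of all genes in *Kmt2c* KO and 4.91% in *Kmt2d* KO, with fold changes of 1.24 (SE 0.26, edgeR adjusted p = 0.21) and 1.03 (SE 0.26, edgeR adjusted p = 0.3) with genotype alone and 1.25 (SE 0.2, edgeR adjusted p = 0.0023) and 1.06 (SE 0.2, edgeR adjusted p = 0.0081) blocked. In 67NR it read 35.6, 35.1 and 53.8 CPM in WT, 9.01, 8.18 and 10.8 in *Kmt2c* KO and 13.4, 11.4 and 22.7 in *Kmt2d* KO. Every KO library was below every WT library there, at -2.15 (SE 0.3, edgeR adjusted p = 0.00057) and -1.39 (SE 0.29, edgeR adjusted p = 0.0084). Of the 7 members of this group, 7 were called lower in 67NR *Kmt2c* KO, 5 in *Kmt2d* KO, and 6 in replicate 3 of 168FARN. The shares of all genes called lower were 17.4%, 11.6% and 25.7% in that order.

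**Figure D4:**
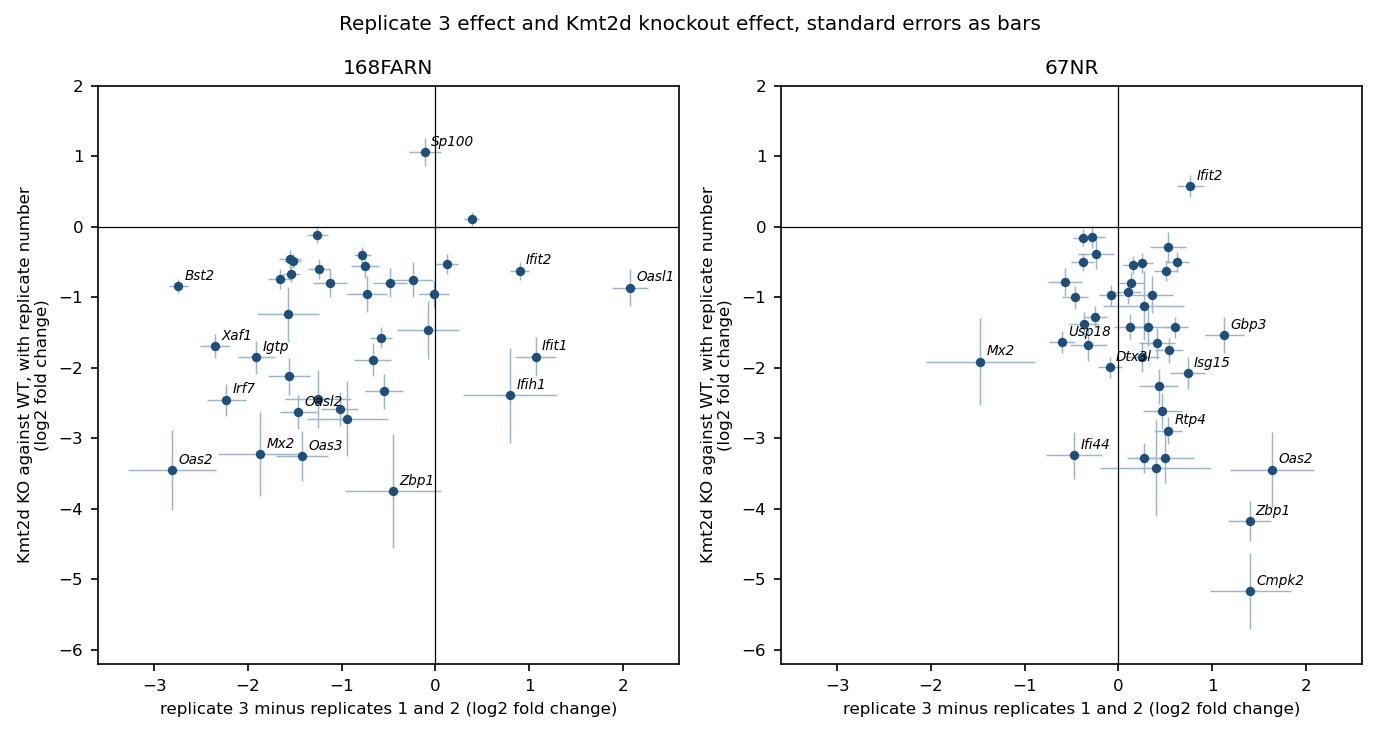
Replicate 3 effect (x axis) and blocked *Kmt2d* KO effect (y axis) of each member as log2 fold changes with standard errors, in 168FARN and in 67NR. In 168FARN the points spread along the replicate axis from -2.81 (*Oas2*) to 2.08 (*Oasl1*) while nearly all lie below 0 on the KO axis, and in 67NR most lie near 0 on the replicate axis. *Rsad2* is not drawn for 168FARN.

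The KOs were also compared with each other. In 67NR, *Kmt2c* KO had 6 members lower than *Kmt2d* KO, against 1.28% of all genes, and 0 higher. They were *Ifit1*, *Oasl2*, *Ifi44*, *Ifih1*, *Parp9* and *Dtx3l*. Their fold changes were -1.52, -1.54, -2.19, -1.63, -1.29 and -1.5, and the median over the 41 members was -0.44. The count was 1 without replicate 2 of either KO or replicate 1 of *Kmt2d* KO, 2 without replicate 1 or 3 of *Kmt2c* KO, 3 without WT replicate 1 or 2, and 7 without WT replicate 3. *Dtx3l* alone was called in each fit that left out 1 library. Blocked, 10 members were called lower, against 5.7% of all genes. In 168FARN the direction was the opposite. *Gbp3* was higher in *Kmt2c* KO than in *Kmt2d* KO with genotype alone, at 2.55 (SE 0.34, edgeR adjusted p = 0.034), against 0.131% of all genes, and 23 of 39 members were higher when blocked, against 2.89% of all genes, with a median of 1.1. That count ranged from 16 without *Kmt2d* KO replicate 1 to 25 without WT replicate 3 or *Kmt2d* KO replicate 3.

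Differences between the lines were tested in a joint fit of the 18 libraries, in which 13882 genes were tested. The *Kmt2c* KO effect was more negative in 67NR than in 168FARN for 20 of the 41 members, against 7.55% of all genes, and more positive for 0, with a median difference of -1.55. Examples were *Ifi44* at -5.25 (SE 0.75, edgeR adjusted p = 0.00019), *Oasl1* at -5.04 (SE 1.05, edgeR adjusted p = 0.0046), *Oasl2* at -4.74 (SE 0.67, edgeR adjusted p = 0.00018) and *Ifit1* at -4.27 (SE 0.67, edgeR adjusted p = 0.00045). The blocked fit called 33 members, 32 of them more negative in 67NR, against 17.2% of all genes, and 1 more positive, against 17.4%. The *Kmt2d* KO effect differed for 2 members, *Dtx3l* at -1.28 (SE 0.28, edgeR adjusted p = 0.0097) and *Sp100* at -2.48 (SE 0.41, edgeR adjusted p = 0.0011), against 3.92% of all genes called lower, with a median difference of -0.06, and for 13 members when blocked. Of these, 8 were more negative in 67NR and 5 more positive, where all genes gave 13% and 15.4%. Without 168FARN WT replicate 3 the count for *Kmt2d* KO with genotype alone was 4. The *Kmt2d* KO comparisons of the lines share no library. Blocked, 30 of the 39 members tested in both lines were lower in 168FARN and 30 in 67NR, and 27 were lower in both. With so many members lower in each line, a large overlap follows from these counts alone. The share of all genes lower in both lines was not computed.

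The WT cells of the lines differed in the basal level of these genes. In the joint fit, which scaled all libraries together, 19 members were higher in 67NR WT than in 168FARN WT and 2 were lower, against 22.3% and 16.9% of all genes, with a median of 0.73. The sensors *Ifih1* and *Zbp1*, at 4.25 (SE 0.6, edgeR adjusted p = 4e-05) and 3.96 (SE 0.69, edgeR adjusted p = 0.00027), and *Dtx3l*, *Parp14* and *Ifi44*, at 3.8, 3.71 and 4.1, were among the higher members. *Cmpk2* had 864 counts in 67NR WT, at least 153-fold above 168FARN WT set at the floor of 3 counts over the group. *Ifit2* and *Ifit3* were lower in 67NR WT, at -1.24 (SE 0.4, edgeR adjusted p = 0.025) and -1.29 (SE 0.32, edgeR adjusted p = 0.0043).

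Components upstream of these genes and further interferon-stimulated genes were read from lists of the pathway. Of the list of interferon receptors, kinases and inducers, 8 of the 23 tested were called lower and 4 higher in each KO of 67NR, beside the 17.4% lower and 17.9% higher of all genes in *Kmt2c* KO and 11.6% and 13.9% in *Kmt2d* KO, with medians of -0.34 in *Kmt2c* KO and -0.24 in *Kmt2d* KO. The receptor subunit *Ifnar2* was lower in both, at -1.48 (SE 0.18, edgeR adjusted p = 3e-04) and -1.17 (SE 0.18, edgeR adjusted p = 0.0018), as was *Il10rb*, at -1.04 and -0.82. *Socs3*, an inhibitor of cytokine receptor signalling, was higher in both, at 1.93 (SE 0.21, edgeR adjusted p = 0.00013) and 1.8 (SE 0.21, edgeR adjusted p = 0.00033), as was the inhibitor *Socs1*, at 3.41 (SE 0.54, edgeR adjusted p = 0.0013) and 2.92 (SE 0.53, edgeR adjusted p = 0.0043). The kinase *Jak1* was also higher in both, at 0.97 (SE 0.15, edgeR adjusted p = 0.0011) and 0.73 (SE 0.15, edgeR adjusted p = 0.0081). In 168FARN 0 of the 21 tested were called in either KO with genotype alone, with 3 at an unadjusted p under 0.05 in each. With genotype alone, 0.359% of all genes were called in that *Kmt2c* KO, and 0.139% were called lower in that *Kmt2d* KO. Blocked, *Socs1* was higher and *Tmem173* and *Irf5* lower in *Kmt2d* KO, at 0.65, -0.67 and -1.79 with genotype alone and 0.66, -0.67 and -1.7 blocked. Over all genes, the blocked fit called 2.73% higher and 3.17% lower there. *Socs1* was also higher in blocked *Kmt2c* KO, at 0.68 (SE 0.19, edgeR adjusted p = 0.042), where 3.66% of all genes were called higher. The interferon gene *Ifnb1* was near 0 everywhere, with 1 count in 168FARN WT, 0 in its KOs, 0 in 67NR WT, 4 in *Kmt2d* KO and 8 in *Kmt2c* KO, each over 3 libraries.

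Of the 33 further interferon-stimulated genes tested in 67NR, 19 were called lower and 2 higher in *Kmt2c* KO, with a median of -1.4. Over all genes tested, 17.4% were called lower and 17.9% higher there. In *Kmt2d* KO 17 were called lower and 1 higher, with a median of -0.76, against 11.6% and 13.9% of all genes. The RNA helicase *Ddx60* was lower, at -4.05 (SE 0.31, edgeR adjusted p = 1.8e-05) and -1.82 (SE 0.28, edgeR adjusted p = 0.0017), as was the surface protein *Ly6e*, at -3.87 (SE 0.33, edgeR adjusted p = 3.2e-05) and -3.1 (SE 0.32, edgeR adjusted p = 0.00017), and the GTPase *Tgtp2*, at -4.68 (SE 0.56, edgeR adjusted p = 0.00023) and -3.7 (SE 0.53, edgeR adjusted p = 0.0011). *Parp12* was lower at -1.73 (SE 0.18, edgeR adjusted p = 9.7e-05) and -0.9 (SE 0.17, edgeR adjusted p = 0.0056), and *Slfn2* at -2.38 (SE 0.35, edgeR adjusted p = 0.00086) and -2.26 (SE 0.35, edgeR adjusted p = 0.0019). In 168FARN 0 of 32 were called in *Kmt2c* KO, against 0.359% of all genes, with 1 at an unadjusted p under 0.05. In *Kmt2d* KO 2 were called lower, against 0.139% of all genes. These were *Trim30a* at -1.88 (SE 0.26, edgeR adjusted p = 0.049) and *Ddx60* at -3.44 (SE 0.47, edgeR adjusted p = 0.049). Blocked, 12 of the 32 were lower in *Kmt2d* KO, against 3.17% of all genes. Replicate 3 of 168FARN was lower for 18 of these 32 and higher for 2, with a median of -0.85, against 25.7% and 22.5% of all genes.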

How the data were processed

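Poly(A) RNA of 18 libraries was prepared with a strand-specific KAPA mRNA HyperPrep kit and sequenced in pairs. STAR, run by the authors through the VIPER pipeline, mapped reads on mm9, and the authors deposited non-normalized counts per gene symbol in a table for each line. No source used here gives the strand setting of that counting. The deposited counts were used as they stand, and 0 columns were left without a sample. Genes were filtered with filterByExpr, scaled by TMM and tested with edgeR's quasi-likelihood test (edgeR 4.0.16, limma 3.58.1, R 4.3.3), with Benjamini-Hochberg adjustment over all genes tested. Genotype alone was the model, as in the study, whose authors used DESeq2, and DESeq2 1.42.0 was an alternative here. Steps were tested on simulated data. Fits within a line used its 9 libraries. Intervals and floors cover counting error only. A marker gene in a summed list is not reported here by itself.

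All 41 members are named. For up to 5 of each role list, those with the smallest p, the value of every library is printed. Further interferon genes come from pathway lists only, with up to 5 called genes per list and line. *Ifnb1* is named in addition and was not called. Members and lists were chosen with earlier results of these data known. The direct comparison of the 168FARN KOs, DESeq2 with the replicate number and leaving out libraries in the blocked fit were chosen after seeing the data. The study collected replicates a passage apart and, for its heatmaps, took each collection time as a batch. That libraries of different genotypes with the same number were collected together is not stated for single libraries. The pairing was checked on deviations from the group means (log CPM, prior count 2). Same-numbered libraries of different genotypes correlated at 0.65 to 0.897 (168FARN) and 0.351 to 0.717 (67NR), whereas pairs of which only one was a replicate 3 gave -0.825 to -0.708 and -0.603 to -0.42. Replicates 1 and 2 also correlated with each other, at 0.623 to 0.728 and 0.284 to 0.523. The check thus set replicate 3 apart and could not show that replicates 1 and 2 were paired by number. Deviations from a mean of 3 libraries are also tied to one another, so an outlying replicate 3 alone can give such signs.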

Additional observations from a re-analysis of the deposited data

Results flagged for a closer look

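The *Kmt2c* KO effect differed between the lines for 20 members, each by the interaction term of the joint edgeR fit of 18 libraries (adjusted p under 0.1 and a difference over 0.6). All 20 were more negative in 67NR, against 7.55% of all genes. The log2 fold change in 67NR minus that in 168FARN was -4.48 for *Zbp1*, -2.91 for *Isg15*, -2.84 for *Usp18*, -2.51 for *Parp9*, -3.23 for *Dtx3l* and -2.69 for *Parp14*. Among the effectors it was -4.27 for *Ifit1*, -1.41 for *Ifit3*, -2.34 for *Oas1a*, -2.64 for *Oas3*, -5.04 for *Oasl1*, -4.74 for *Oasl2*, -0.87 for *Samhd1* and -4.6 for *Rsad2*. The rest were *Gbp2* at -1.53, *Gbp3* at -1.94, *Lgals3bp* at -1.53, *Rtp4* at -3.71, *Sp100* at -3.47 and *Ifi44* at -5.25. Of these 20, 15 were called in each of the fits that left out 1 library, and *Ifit3*, *Samhd1*, *Gbp2*, *Gbp3* and *Lgals3bp* were not.

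For *Kmt2d* KO the same test called *Dtx3l*, at -1.28, and *Sp100*, at -2.48, and both were called in each of those fits. It called 3.92% of all genes more negative in 67NR, so a count of 2 members was near the share over all genes. *Dtx3l* was called lower in *Kmt2d* KO in 67NR. In 168FARN it was not called, although all *Kmt2d* KO libraries were below all WT libraries. *Sp100* had opposite directions in the lines. Groups of 3 libraries were too small to be searched for single outlying libraries.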

How the results depend on the processing

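Several counts of members called moved with the replicate block. With it, the count went from 0 to 3 for 168FARN *Kmt2c* KO, from 1 to 31 for *Kmt2d* KO, from 1 to 23 between those KOs, from 6 to 10 between the 67NR KOs, from 20 to 33 for the difference of the *Kmt2c* KO effect between lines and from 2 to 13 for that of *Kmt2d* KO. Without replicate 3 of every group these counts were 7, 32, 26, 12, 32 and 16, and with DESeq2 and the block 3, 31, 25, 11, 34 and 14. DESeq2 with genotype alone gave 1 for 168FARN *Kmt2c* KO, 17 for *Kmt2d* KO, 12 between them and 5 for the *Kmt2d* KO difference between lines. With only the 6 libraries compared, 168FARN *Kmt2d* KO and the comparison of the 168FARN KOs gave 0, and the 67NR KOs 2, as did the other thresholds (adjusted p under 0.05 together with a log2 fold change over 0.5) for the 67NR KOs. In the blocked fits of single KO comparisons against WT the other changes were calls gained for *Ifih1*, *Mx1*, *Mx2* and *Xaf1* in 67NR *Kmt2d* KO and lost for *Samhd1* in *Kmt2c* KO.

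Leaving out 1 library with genotype alone gave 0 to 0 members for 168FARN *Kmt2c* KO, 0 to 3 for *Kmt2d* KO (3 without WT replicate 3), 0 to 2 between them, 32 to 35 for 67NR *Kmt2c* KO, 25 to 31 for *Kmt2d* KO, 1 to 7 between those, 23 to 29 for replicate 3 of 168FARN, 7 to 13 for replicate 3 of 67NR (13 without *Kmt2c* KO replicate 3), 15 to 24 and 2 to 4 for the differences between lines, and 18 to 22 for the WT lines. In the blocked fits the ranges were 1 to 7 (7 without WT replicate 3), 21 to 32, 16 to 25, 34 to 38, 29 to 33 and 9 to 12, and 19 of the 31 blocked calls in 168FARN *Kmt2d* KO were kept in each. *Rsad2* reversed in the 67NR replicate 3 contrast without WT replicate 3, to -1.03 (edgeR adjusted p = 0.063) in a range up to 1.04, and *Dhx58* between the WT lines without replicate 3, to -0.7 (adjusted p = 0.0066). The causes were not tested. Scaling moved the median of all genes by under 0.1. At 3 libraries a group and under 1 CPM, differences of *Ifih1*, *Zbp1*, *Rsad2* and *Mx1* in 168FARN are limited by depth.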
